A study of Bos taurus with 8 samples.

Results

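KRT7, KRT8, KRT18, KRT19 and KRT80 are 5 keratin genes of epithelia, 5 of the 15267 genes in a table of RNA levels from bovine conceptuses. They were chosen by gene name, with the FLI to control difference of KRT80 in these same samples already known, so the differences between the groups are described here without a test for these 5 genes. RNA was sequenced from 8 samples of filamentous conceptuses at day 15, each labelled a conceptus-half, with poly-A enriched stranded libraries. The growth label names embryo development in vitro and does not say where the embryos elongated. In the 4 samples called FLI, the growth factors and cytokine FGF2, LIF and IGF1 had been added. The 4 control samples carry the treatment label control. The title of the series names embryo survival and conceptus elongation after slow-rate freezing. No label gives the sire, dam, sex or breed, which piece of the conceptus each sample was, or whether the samples came from separate embryo cultures. The FLI samples are called FLI 20, FLI 3M, FLI 4M and FLI 50 after their titles, and the controls control 10, control 20, control 3M and control 4M. Control 10 stood apart in its markers of trophectoderm and hypoblast, whose values are given beside the keratins, and differences of named genes and list counts that it moves are also given without it. Libraries held 108851495 to 152570016 reads assigned to genes.

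Keratins are the intermediate filament proteins of epithelial cells. A type I keratin pairs with a type II keratin, and neither forms a filament alone. KRT8 (type II) and KRT18 (type I) are the founding pair of simple epithelia, and in the mouse embryo they appear in the trophectoderm, the outer epithelium that becomes placenta. KRT19 (type I) and KRT7 (type II) are further simple-epithelial keratins, and antibodies to KRT7 are widely used to mark human trophoblast. KRT80 (type II) is known in human tissues as a keratin of differentiating epithelia. At the filamentous stage most of a ruminant conceptus is trophectoderm, lined by hypoblast-derived endoderm, with a small embryonic disc.

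Levels are given as the authors' scaled CPM, read counts normalised to library totals that the authors had scaled. KRT8 and KRT18 were among the most abundant transcripts of every sample. KRT8 ranked between place 2 and place 5 of 15267 genes by CPM, KRT18 between 4 and 12, and KRT19 between 7 and 44. KRT7 ranked between 489 and 3682 and KRT80 between 10841 and 13228. Together the 5 keratins took 2.06% ± 0.219 of the assigned reads in FLI and 2.06% ± 0.414 in control (SD, n = 4 each). The share was 1.86 to 2.33% in FLI and 1.45 to 2.35% in control, so the groups overlapped, and control 4M had the lowest share.

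To compare genes with each other, levels were divided by the exon length in the deposited table (CPM per kb). On that scale KRT18 reached 2686 to 5147 and KRT8 2644 to 4891 over the 8 samples, and neither was above the other throughout: KRT8 was the higher in 4 of 8 samples. KRT19 reached 1132 to 3509 CPM per kb and lay below KRT18 in 6 of 8 samples, the exceptions being FLI 20 and control 10. KRT7 reached 27.8 to 186 CPM per kb, below KRT19 in 8 of 8 samples by 7.33 to 126 times. KRT80, at 0.109 to 0.437 CPM per kb, lay below KRT7 in 8 of 8 samples. KRT8, KRT18 and KRT19 thus had overlapping ranges on the per-length scale, while KRT7 and KRT80 stood apart from them and from each other.

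Of the 5 genes, 4 lie on chromosome 5 of the build ARS-UCD1.2, with coordinates as deposited for the exons. KRT18 (ENSBTAG00000001517) spans 26998530 to 27002595 on the minus strand, and KRT8 (ENSBTAG00000000836) spans 27039437 to 27047690 on the plus strand, head to head across 36841 bases. KRT7 (ENSBTAG00000016165) spans 27674854 to 27689030 on the minus strand, and KRT80 (ENSBTAG00000007204) spans 27732717 to 27757234 on the plus strand, with 43686 bases between them. The 2 close pairs are 627163 bases apart. From KRT18 to KRT80 the table holds 7 genes, of which 6 are keratins (KRT5 and KRT6A being the others) and 1 has no name. KRT19 (ENSBTAG00000004905) lies on chromosome 19 at 41731625 to 41735635 on the minus strand, in the neighbourhood of KRT15 at 41721536 to 41726328. KRT8 and KRT18 lay close in level, with a ratio in CPM per kb of 0.855 to 1.54 over the 8 samples, while KRT7 exceeded its neighbour KRT80 by 71.9 to 1707 times.

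KRT8 had 9100, 12585, 8995 and 11130 CPM in FLI 20, FLI 3M, FLI 4M and FLI 50. It had 10694, 11352, 10198 and 6804 CPM in control 10, control 20, control 3M and control 4M. FLI 3M was the highest sample and control 4M the lowest, and the groups overlapped. The means were 10453 ± 1728 CPM in FLI and 9762 ± 2028 CPM in control (SD, n = 4 each). The log2 difference was 0.11 (SE 0.27), 0.01 with library size alone and 0.16 without control 10. Log2 differences throughout are between the group means of log2(CPM + 0.5), and can differ from the log2 ratio of the CPM means.

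KRT18, the type I partner of KRT8, had 5142, 9687, 6525 and 8447 CPM in FLI 20, FLI 3M, FLI 4M and FLI 50. In control 10, control 20, control 3M and control 4M it had 5089, 8076, 8724 and 5055 CPM. FLI 20, control 10 and control 4M were the low samples and FLI 3M the highest, and the ranges of the groups overlapped almost fully. The means were 7450 ± 2015 CPM in FLI and 6736 ± 1940 CPM in control, a log2 difference of 0.15 (SE 0.31), and 0.03 without control 10.

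KRT19, the second abundant type I keratin, had 5114, 2544, 2262 and 3170 CPM in FLI 20, FLI 3M, FLI 4M and FLI 50. In control 10, control 20, control 3M and control 4M it had 5495, 3575, 2283 and 1772 CPM. The highest values stood in 1 sample of each group, FLI 20 and control 10, the same samples in which KRT18 was close to its lowest. The means were 3272 ± 1285 CPM in FLI and 3281 ± 1659 CPM in control. The difference between mean log2 levels was 0.06 (SE 0.40), -0.04 when libraries were scaled by their size alone, and 0.35 without control 10.

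KRT7, the type II keratin used as a trophoblast marker, differed widely between samples. It had 318, 267, 174 and 188 CPM in FLI 20, FLI 3M, FLI 4M and FLI 50. In control 10, control 20, control 3M and control 4M it had 47.6, 134, 223 and 265 CPM. Control 10 had the lowest level and FLI 20 the highest, and FLI 4M and FLI 50 lay inside the control range. The means were 237 ± 68.0 CPM in FLI and 167 ± 96.6 CPM in control, 1.42 times the control level. The difference between mean log2 levels was 0.72 (SE 0.50), and 0.20 without control 10. The authors' deposited log2 fold change of KRT7 is 0.41. Titles end in either M or 0, and no label says what this marks. In titles ending in 0 KRT7 averaged 253 CPM in FLI and 90.9 CPM in control, a log2 difference of 1.61, and in titles ending in M it averaged 221 CPM in FLI and 244 CPM in control, a log2 difference of -0.17 (n = 2 samples per group each).

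KRT80 had the lowest level of the 5 and was the 1 of them whose groups did not overlap. It had 0.446, 0.856, 0.941 and 0.800 CPM in FLI 20, FLI 3M, FLI 4M and FLI 50, from 51, 109, 137 and 81 reads. In control 10, control 20, control 3M and control 4M it had 1.58, 1.55, 1.79 and 1.52 CPM, from 208, 240, 240 and 203 reads. All 4 FLI samples lay below all 4 controls. FLI 20 was the lowest sample and the controls lay close together. The mean was 0.760 ± 0.218 CPM in FLI and 1.61 ± 0.123 CPM in control (SD, n = 4 each), 0.472 times the control level. The log2 difference was -0.76 (SE 0.22) with 0.5 added to each value and -1.03 with 0.1 added, and the authors' deposited table gives a log2 fold change of -1.08. The counting error of these levels is sizeable: the exact Poisson interval at 95% in FLI 20 was 0.332 to 0.586 CPM, and it would be 0.290 to 0.655 CPM if each fragment had been counted as 2 reads, which the excess of even counts in the table leaves possible. Such intervals cover counting error alone. KRT80 averaged 0.898 CPM in FLI and 1.66 CPM in control for titles ending in M, and 0.623 CPM in FLI and 1.57 CPM in control for titles ending in 0. In bulk samples, fewer cells that hold a transcript and less of it per cell cannot be told apart. KRT80 passed the filter on low values, 1 CPM or more in 4 or more samples, only through its controls.

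**Figure D1:**
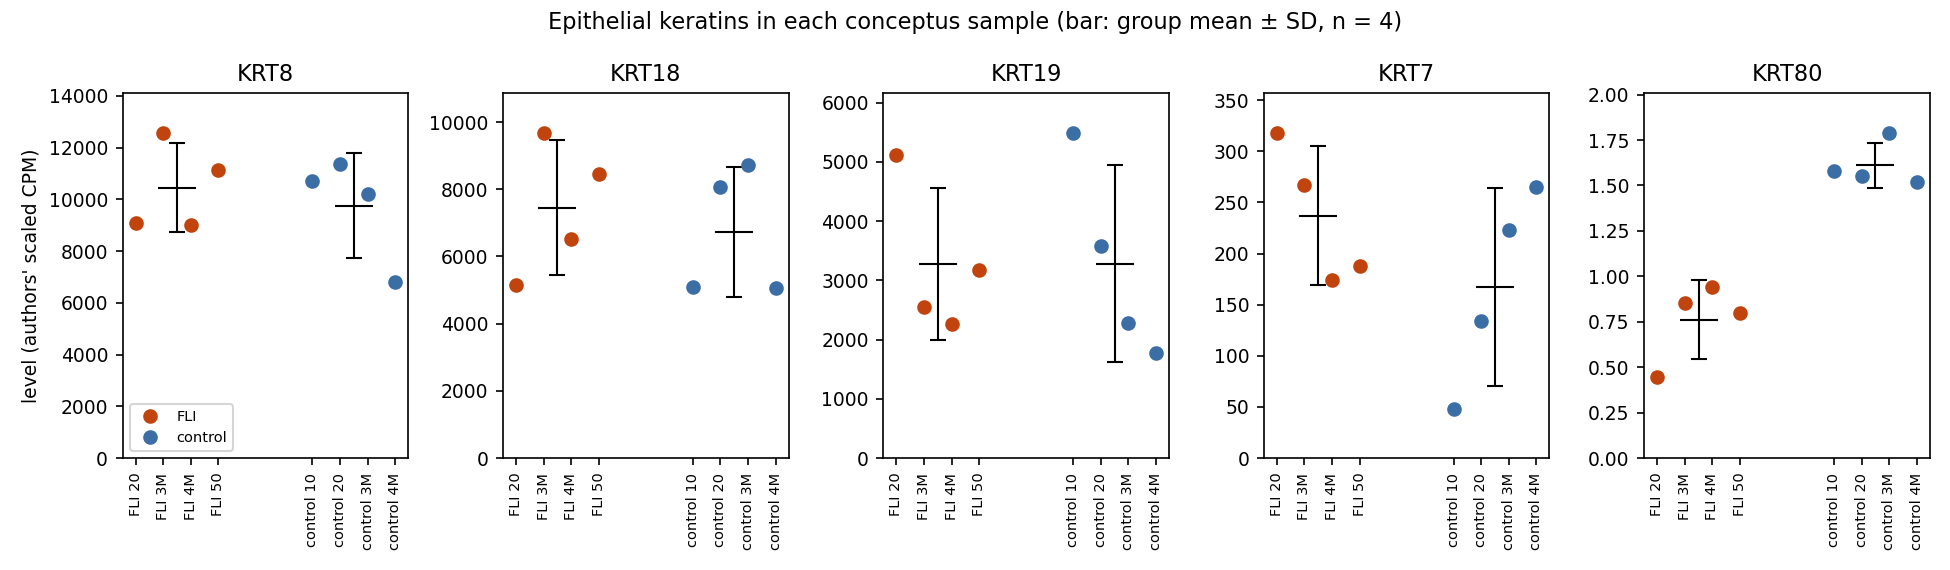
Level of each keratin in scaled CPM on linear axes from 0, with a scale of its own for each gene, 1 point per sample, FLI samples left of controls, and bars for the group mean ± SD (n = 4 each). The groups overlap for KRT8, KRT18, KRT19 and KRT7, while the 4 FLI values of KRT80 (0.446 to 0.941 CPM) lie below its 4 control values (1.52 to 1.79 CPM).

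Among the 11897 genes tested, 0.605% (72 genes) had every FLI sample under every control, and 0.841% (100 genes) had every FLI sample above every control. Since KRT80 was picked with this contrast known, nothing is read from its being 1 of the 5. In limma's test across all genes, 0 of 11897 genes (0%) passed an adjusted p of 0.05, and 338 genes (2.84%) had an unadjusted p under 0.05, 225 higher and 113 lower in FLI. The edgeR quasi-likelihood test on recovered reads called 0 genes (374 had an unadjusted p below 0.05), and DESeq2 called 9 (608 had an unadjusted p below 0.05). In the authors' deposited table the adjusted p is below 0.05 for 32 genes, and 0 of the 5 keratins are among them. No label says that samples came from separate cultures or animals, so p-values measure only the spread between these samples. The spread of the keratins within a group can be set beside that of other genes. The coefficient of variation of KRT8 was 16.5% in FLI and 20.8% in control, against a median over all tested genes of 19.6% in FLI and 22.4% in control. It was 27.0% in FLI and 28.8% in control for KRT18, and 39.3% in FLI and 50.6% in control for KRT19. For KRT7 it was 28.7% in FLI and 57.7% in control, and for KRT80 28.6% in FLI and 7.63% in control.

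Ratios between keratins of the same sample do not depend on how libraries are scaled. The summed type II level (KRT7, KRT8 and KRT80) over the summed type I level (KRT18 and KRT19), each in CPM per kb, was 0.621, 0.745, 0.733 and 0.681 in FLI 20, FLI 3M, FLI 4M and FLI 50. It was 0.673, 0.683, 0.672 and 0.733 in control 10, control 20, control 3M and control 4M. The ratio had a coefficient of variation of 6.03% over the 8 samples, against 16.8% for the type II sum and 17.1% for the type I sum. The sums carry library scaling that the ratio does not, and no ratio of other genes was set beside it. For the ratio of KRT8 to KRT18 the coefficient was 20.8%. The type II to type I ratio averaged 0.695 ± 0.0568 in FLI and 0.690 ± 0.0290 in control. The make-up of the type I sum varied more. KRT19 made up 54.4, 24.0, 29.4 and 31.1% of it in FLI 20, FLI 3M, FLI 4M and FLI 50, and 56.5, 34.7, 23.9 and 29.6% in control 10, control 20, control 3M and control 4M. FLI 20 and control 10 were the 2 samples in which KRT19 exceeded KRT18. The ratio of KRT8 to KRT18 was highest in the same samples, at 1.29 in FLI 20 against 0.950 to 1.01 in the other FLI samples, and at 1.54 in control 10 against 0.855 to 1.03 in the other controls. KRT7 made up 2.48 to 4.99% of the type II sum in FLI and 0.663 to 5.52% in control.

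**Figure D2:**
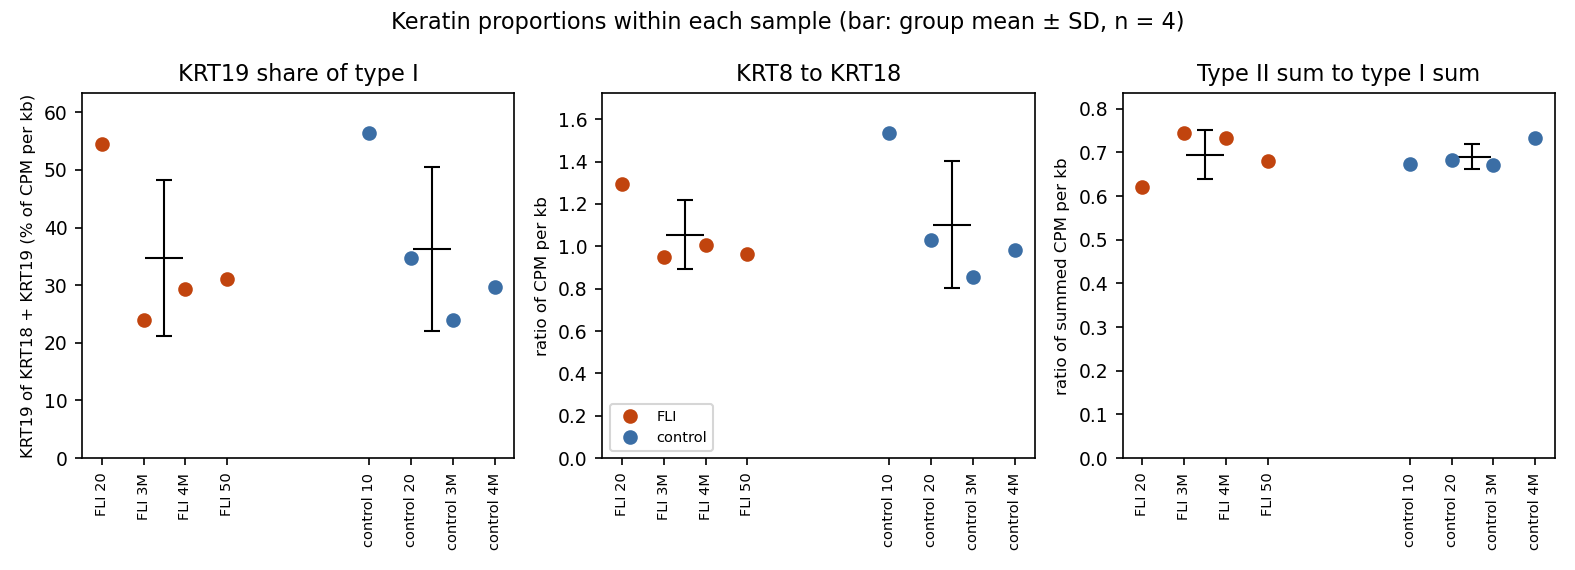
Proportions within each sample from CPM per kb, FLI samples left of controls, with bars for the group mean ± SD (n = 4 each): the share of KRT19 in the type I sum in percent, the ratio of KRT8 to KRT18, and the ratio of the type II sum to the type I sum. KRT19 stands at 54.4% in FLI 20 and 56.5% in control 10 and at most 34.7% elsewhere, while the type II to type I ratio keeps between 0.621 and 0.745.

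Of the 10 pairs of keratins, KRT8 and KRT18 had the strongest positive correlation across the 8 samples, with Pearson's r of 0.71 (exact two-sided permutation p = 0.0381, adjusted p = 0.381 over the 10 pairs). Spearman's rho was 0.69 (exact permutation p = 0.0694, adjusted p = 0.694), and r was 0.49 without control 4M and FLI 3M. Of the 10 pairs 0 passed the adjusted threshold. Without control 10 the KRT8 and KRT18 pair had r = 0.88 (exact permutation, adjusted p = 0.0417) and was the 1 pair to pass. KRT19 and KRT7 had r = -0.51 (exact permutation p = 0.196, adjusted p = 0.687), and rho was -0.26 (exact permutation p = 0.536, adjusted p = 0.977). The r of this pair was -0.73 without control 10 and FLI 20, 0.04 without control 10 alone, and -0.90 without FLI 20 alone (exact permutation, adjusted p = 0.0813).

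Another 49 keratin symbols were looked up, and 7 were in the table. They include keratins of stratified and other epithelia: KRT5, KRT14 and KRT15 of basal cells, KRT6A and KRT17 of activated keratinocytes, KRT10 of suprabasal cells and KRT20 of the gut lining. KRT5, KRT6A, KRT10 and KRT20 passed the filter and were tested, and 0 of the 4 passed limma (adjusted p of 0.970 to 0.983). KRT5 had 28.4, 5.97, 1.48 and 41.5 CPM in FLI 20, FLI 3M, FLI 4M and FLI 50. In control 10, control 20, control 3M and control 4M it had 120, 12.5, 7.98 and 2.29 CPM, a log2 difference of -0.31 (SE 1.29). Control 10 was the highest sample for KRT5 and the groups overlapped. Without control 10 the log2 difference turned, to 0.73 for KRT5 and to 0.36 for KRT6A, which was -0.34 with it. KRT6A was high in FLI 50, at 15.3 CPM, and in control 10, at 17.4 CPM, where the remaining FLI samples had 0.206 to 4.02 CPM and the remaining controls 0.0748 to 7.76 CPM. KRT10 was 2.19 to 2.74 CPM in FLI and 2.10 to 4.81 CPM in control, a log2 difference of -0.26, or -0.06 without control 10. KRT20 had 19.1 CPM in FLI 50, 2.94 to 3.32 CPM in the remaining FLI samples and 1.63 to 8.57 CPM in control, a log2 difference of 0.32, or 0.21 without control 10. KRT6A and KRT10 belong to families of closely alike keratins, and how reads with several positions were counted is not given in the sources used here.

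Among the keratins too low to be tested, KRT15 stood out in 1 sample. It had 27.9 CPM in FLI 20, 0.0755 to 0.158 CPM in the remaining FLI samples and 0.135 to 0.342 CPM in control. KRT15 and KRT19 are the neighbours on chromosome 19, and FLI 20 also had the highest KRT19 of the FLI samples. TP63, a transcription factor of basal epithelial cells named here after its values were seen, had 43.0 CPM in FLI 20, 4.88 to 9.23 CPM in the remaining FLI samples and 0.737 to 5.61 CPM in control. KRT17 had 2.89 CPM in control 10, against 0.262 to 1.19 CPM in FLI and 0.0746 to 0.504 CPM in the other controls. KRT14, the usual type I partner of KRT5 in basal cells, was not raised in FLI 20, where it had 0.428 CPM, and ranged from 0.345 to 0.810 CPM in FLI and from 0.330 to 1.09 CPM in control. KRT5 in FLI 20, at 28.4 CPM, lay below its level in FLI 50 and in control 10.

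**Figure D3:**
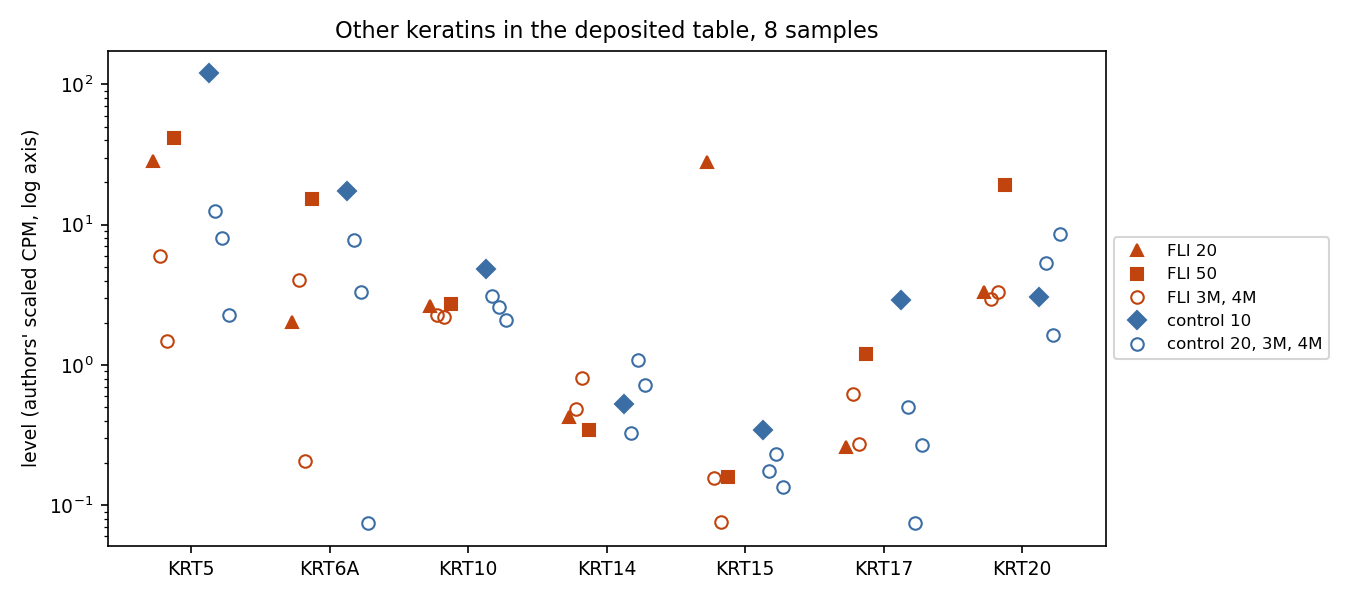
Level of the other 7 keratins in scaled CPM on a log axis, 1 symbol per sample, FLI samples (red) left of controls (blue), with FLI 20, FLI 50 and control 10 filled. Single samples carry the high values: control 10 for KRT5 (120 CPM), FLI 20 for KRT15 (27.9 CPM) and FLI 50 for KRT20 (19.1 CPM).

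Keratin filaments are anchored at desmosomes by plakin proteins. Of 21 symbols for desmosomes, plakins and keratin anchors, 16 genes were tested and 0 passed limma. Their mean log2 levels were higher in FLI for 9 and lower for 7, with a median log2 difference of 0.18, against 0.0045 over all genes tested. Counts of higher and lower means in all gene lists are of mean log2 levels, and can differ from counts by mean CPM. Without control 10 the count was 6 higher and 10 lower and the median -0.05. DSP, desmoplakin, which ties keratins to the desmosome, averaged 845 ± 242 CPM in FLI and 752 ± 394 CPM in control (SD, n = 4 each). The direction of DSP rested on control 10, with 257 CPM: its log2 difference was 0.33 with that sample and -0.12 without it, when the control mean was 917 ± 263 CPM (SD, n = 3). EVPL, envoplakin, had 147, 178, 79.6 and 101 CPM in FLI 20, FLI 3M, FLI 4M and FLI 50, and 30.0, 96.9, 81.7 and 63.1 CPM in control 10, control 20, control 3M and control 4M. The groups overlapped, and the log2 difference of EVPL was 0.94 (SE 0.39, limma unadjusted p = 0.0401, adjusted p = 0.970), and 0.60 without control 10. PPL, periplakin, the partner of envoplakin, averaged 22.0 ± 3.75 CPM in FLI and 17.1 ± 4.17 CPM in control.

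Of the 24 chaperones, binders and modifiers of keratins, 24 were tested and 0 passed. Means were higher in FLI for 15 and lower for 9, with a median log2 difference of 0.05, but with library size alone the count of higher means was 10 and the median -0.05. HSPA8, a constitutive chaperone, averaged 4668 ± 460 CPM in FLI and 5363 ± 857 CPM in control, a log2 difference of -0.19, or -0.30 without control 10. PRKCZ, an atypical protein kinase C, averaged 61.7 ± 11.0 CPM in FLI and 43.7 ± 12.3 CPM in control (limma unadjusted p = 0.0554, adjusted p = 0.970). TGM2, a transglutaminase, which crosslinks proteins, averaged 54.3 ± 17.0 CPM in FLI and 29.6 ± 16.4 CPM in control (limma unadjusted p = 0.0564, adjusted p = 0.970). Without control 10 the log2 difference of PRKCZ was 0.31 in place of 0.53 and that of TGM2 0.58 in place of 1.04.

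Of 22 symbols for transcription factors of epithelial keratin genes, 20 were tested and 0 passed. Means were higher for 11 and lower for 9, with a median log2 difference of 0.02, and with library size alone higher for 8 and a median of -0.07. Without control 10, means were higher for 10 and lower for 10, with a median of -0.02. GATA3, a trophectoderm factor, averaged 135 ± 62.8 CPM in FLI and 65.2 ± 39.1 CPM in control, with 11.7 CPM in control 10. GRHL1, a grainyhead factor of epithelia, averaged 293 ± 53.1 CPM in FLI and 240 ± 171 CPM in control, with 32.5 CPM in control 10. KLF5, a Kruppel-like factor, averaged 53.7 ± 11.8 CPM in FLI and 90.0 ± 47.7 CPM in control, with 157 CPM in control 10. Control 10 thus was the lowest sample for GATA3 and GRHL1 and the highest for KLF5. Without it the control mean of GRHL1 was 309 ± 124 CPM (SD, n = 3), above that of FLI, and its log2 difference was 0.01 in place of 0.79. The difference of GATA3 was then 0.62 in place of 1.31, and that of KLF5 -0.32 in place of -0.63.

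Intermediate filament proteins other than keratins were represented by 10 tested genes, of which 2 had a higher and 8 a lower mean in FLI, with a median log2 difference of -0.07, and 0 passed. Without control 10, 5 were higher and 5 lower, with a median of 0.03. LMNA, the A-type lamin of the nucleus, averaged 323 ± 64.4 CPM in FLI and 412 ± 219 CPM in control. BFSP1, a filament protein known from the eye lens, averaged 8.72 ± 1.94 CPM in FLI and 5.88 ± 0.823 CPM in control (limma unadjusted p = 0.0322, adjusted p = 0.970). NEFH, the heavy neurofilament protein, averaged 3.29 ± 1.21 CPM in FLI and 6.55 ± 5.19 CPM in control, with 14.1 CPM in control 10. Without control 10 the log2 difference of NEFH was -0.26 in place of -0.69 and that of LMNA turned, to 0.08 in place of -0.21.

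The labelled tissue was checked against markers. All of the 14 trophectoderm markers and 16 epithelial identity genes were in the table with reads in every sample. Trophectoderm markers summed to 5536 to 14189 CPM in FLI and 1609 to 8628 CPM in control, the lowest being control 10 and the other controls reaching 5436 to 8628 CPM. Most of this sum in each sample came from SSLP1, PAG2, IFNT, IFNT2 and IFNT3. SSLP1 alone had 1839 to 5911 CPM in FLI and 571 to 3619 CPM in control. Whether the sum follows the amount of trophectoderm was not tested. Of these 14 markers 13 had a higher mean log2 level in FLI, against 6039 of all 11897 genes tested. Without control 10 that count was 11. Among the 13, CDX2 and ELF5 were lower in FLI by mean CPM. CDX2 averaged 49.6 CPM in FLI and 55.5 CPM in control, and ELF5 2.76 CPM in FLI and 2.79 CPM in control. Of the 14 markers 0 passed the adjusted threshold. PAG2 was the 1 marker whose groups did not overlap, at 698 to 2519 CPM in FLI and 183 to 675 CPM in control. Its log2 difference was 2.13 (limma unadjusted p = 0.00195, adjusted p = 0.970), and 1.80 without control 10. Over all genes tested, 0.841% had every FLI sample above every control. Control 10 was the lowest of the 8 samples for 10 of the 14 trophectoderm markers, such as CDX2 at 6.92 CPM and TFAP2C at 24.4 CPM, and the highest for 1, TEAD4 at 84.8 CPM. Of the 16 epithelial identity genes it was the lowest for 12, such as CDH1 at 98.8 CPM, and the highest for 2, SPINT2 at 586 CPM and PROM2 at 25.6 CPM. Epithelial identity genes summed to 3652 to 4386 CPM in FLI and 2363 to 4496 CPM in control. Of 15 tested genes 14 had a higher mean log2 level in FLI, 12 with library size alone and 10 without control 10. Among the 14, SPINT2 was lower in FLI by mean CPM, at 370 CPM against 372 CPM in control. Of the 15 genes 0 passed the adjusted threshold. Hypoblast and yolk sac markers (12 of 13 symbols in the table) summed to 871 to 2394 CPM in FLI and 611 to 6685 CPM in control, with 10 of 11 tested genes lower in mean in FLI and 0 past the threshold. Without control 10 that count was 5 of 11, and the sum reached at most 3042 CPM in control. Control 10 was the highest of all samples in this sum, with 6183 CPM of APOA1, an apolipoprotein. KRT8 in control 10, at 10694 CPM, lay inside the range of the other samples, while KRT7 was at its lowest there and KRT19 at its highest.

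Other tissues were represented more weakly. Epiblast markers (8 of 11 symbols in the table) summed to 134 to 287 CPM in FLI and 169 to 505 CPM in control, with 6 of 7 tested genes lower in mean in FLI, or 7 without control 10, and 0 past the threshold. PRDM14, of the pluripotent epiblast, had 0 reads in FLI 20 and FLI 50. Mesoderm and mesenchyme markers (12 of 16 symbols) summed to 17.8 to 536 CPM in FLI and 13.9 to 139 CPM in control. HAND1 alone reached 526 CPM in FLI 20, so the sum of that sample was nearly all HAND1. TBXT, which defines early mesoderm, had 0 reads in FLI 20, FLI 50 and control 3M, and EOMES had 0 reads in FLI 20. Of the 12 genes 5 passed the filter. Endometrial epithelium markers (6 of 12 symbols) summed to 22.2 to 42.7 CPM in FLI and 17.4 to 79.4 CPM in control, mostly MUC1 and FOXA2, which other epithelia or endoderm also express, FOXA2 being in the hypoblast list too. SERPINA14, the uterine serpin, was at most 0.118 CPM in FLI and 1.24 CPM in control. Blood and leukocyte markers (5 of 13 symbols) summed to 3.50 to 81.8 CPM in FLI and 9.34 to 10.2 CPM in control, with 66.6 CPM of ALAS2 in FLI 20. The part of these tissues in the keratin levels was not tested beyond the correlations given next.

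The level of each keratin was set beside the mean log2 level of each of 7 marker lists over the 8 samples, 35 relations in all, chosen after the data had been seen. Of these 0 passed after adjustment. KRT7 had r = 0.92 with the trophectoderm mean (exact permutation p = 0.0108, adjusted p = 0.0865), and rho was 0.62 (exact permutation p = 0.115, adjusted p = 0.447). That r was 0.26 without control 10 and FLI 20 and 0.56 without control 10, so its size leans on those samples. Within the groups r was 0.95 in FLI and 0.91 in control, with those samples included. These are 4 samples each, too few for a relation of their own. KRT7 and the hypoblast mean had r = -0.85 (exact permutation p = 0.00811, adjusted p = 0.0865), with a rho of -0.64 (exact permutation p = 0.0962, adjusted p = 0.447), and r was -0.07 without control 10 and control 20. KRT7 and the epithelial identity mean had r = 0.91 (exact permutation p = 0.0124, adjusted p = 0.0865) and a rho of 0.71 (exact permutation p = 0.0576, adjusted p = 0.336), with r = 0.34 without control 10 and FLI 20. KRT7 and the endometrial mean had r = -0.89 (exact permutation p = 0.0109, adjusted p = 0.0865) and a rho of -0.62 (exact permutation p = 0.115, adjusted p = 0.447), with r = -0.08 without control 10 and control 20. Of the 6 genes in the endometrial mean 2 passed the filter, MUC1 and FOXA2. The rest were at most 1.91 CPM in any sample, so that mean leans on genes near the floor. All 4 of these KRT7 relations thus weakened when the samples at the ends were left out. KRT19 and the endometrial mean had r = 0.80 (exact permutation p = 0.0111, adjusted p = 0.0865) and a rho of 0.81 (exact permutation p = 0.0218, adjusted p = 0.321), with r = 0.80 without control 10 and control 20. With the mesoderm mean KRT19 had r = 0.81 (exact permutation p = 0.0173, adjusted p = 0.101) and a rho of 0.79 (exact permutation p = 0.0279, adjusted p = 0.321), and r was 0.83 without control 10 and control 20. Of the 12 genes in that mean 5 passed the filter, and the part of HAND1 in it was not tested. With the hypoblast mean KRT19 had r = 0.70 (exact permutation p = 0.0520, adjusted p = 0.205) and a rho of 0.74 (exact permutation p = 0.0458, adjusted p = 0.321), and r was 0.54 without the same samples. Without control 10 alone, the r of KRT19 was 0.70 with the endometrial mean, 0.71 with the mesoderm mean and 0.49 with the hypoblast mean. FLI 20, the other sample of high KRT19, stayed in throughout. Within the groups the KRT19 and mesoderm values were r = 0.88 in FLI and 0.89 in control, over 4 samples each, too few for a relation of their own. KRT80 and the trophectoderm mean had a rho of -0.86 and r = -0.63, and r was -0.76 without control 10 and FLI 20. Within the groups that r was -0.84 in FLI and 0.19 in control. No p is given for KRT80, since it was picked with its groups known to be apart.

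**Figure D4:**
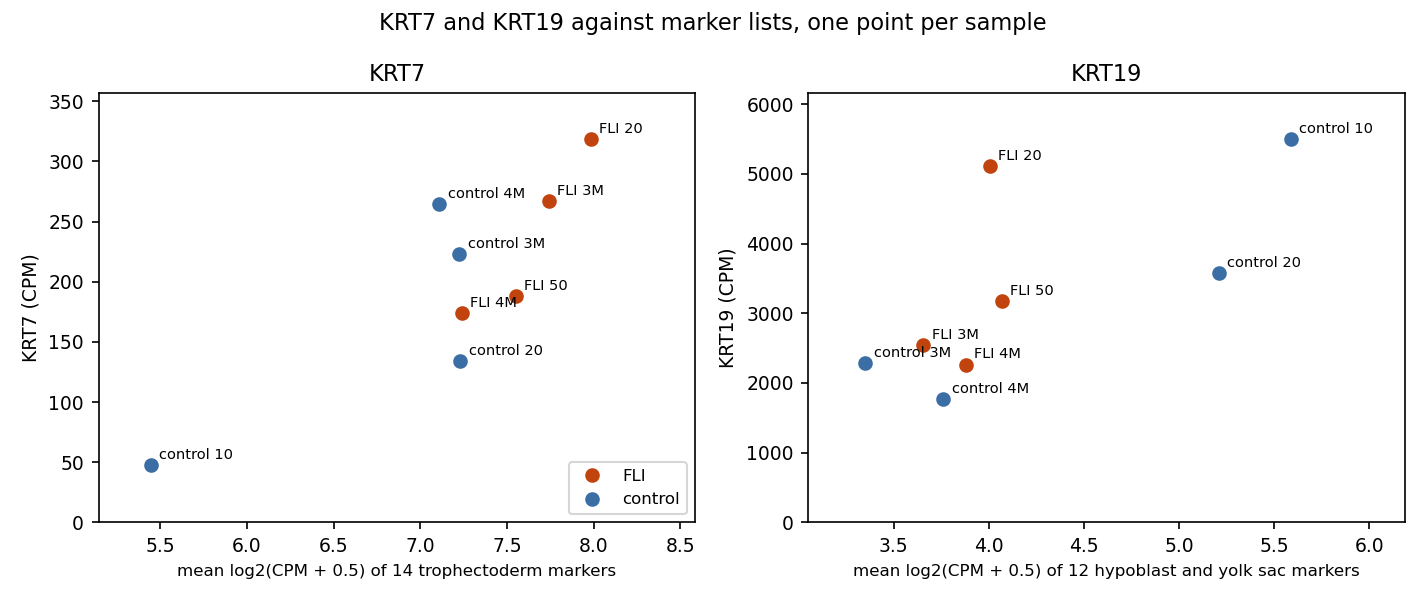
KRT7 in scaled CPM against the mean log2(CPM + 0.5) of 14 trophectoderm markers, and KRT19 in scaled CPM against that of 12 hypoblast and yolk sac markers, 1 labelled point per sample (FLI red, control blue). Control 10 stands alone at low trophectoderm markers and 47.6 CPM of KRT7, and FLI 20 has high KRT19 (5114 CPM) without the high hypoblast mean of control 10.

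Among tested genes with a symbol, those whose log2 level followed each keratin most closely over the 8 samples differed from keratin to keratin. For KRT7 they were ABR (r = 0.99), SOCS2 (r = 0.99) and PPP4R1 (r = 0.98). For KRT19 they were MPST (r = 0.99), C15H11orf34 (r = 0.99) and HHIPL1 (r = 0.98). KRT8 was followed by USP5 (r = 0.96), ATXN10 (r = 0.96) and MRPL13 (r = 0.94), and KRT18 by AMZ2 (r = 0.97), MRPS34 (r = 0.96) and SMOC2 (r = 0.95). For KRT80 they were TADA2A (r = 0.95), C8H9orf40 (r = 0.95) and HDAC2 (r = 0.94). In all 3 the FLI samples also lay below the controls, as in 0.605% of all genes tested. TADA2A had 41.1 to 46.6 CPM in FLI and 47.8 to 52.2 CPM in control. HDAC2 was barely apart, at 42.71 to 56.82 CPM in FLI and 56.83 to 62.87 CPM in control. Nothing is read from this, since the 3 were picked for likeness to KRT80, whose groups were known to be apart. An r over 0.9 was reached by 321 of the genes with a symbol for KRT19 and 275 for KRT7, against 24 for KRT18, 14 for KRT80 and 11 for KRT8. KRT19 was far above its other values in control 10 (5495 CPM) and FLI 20 (5114 CPM), and KRT7 was lowest in control 10 (47.6 CPM). How far the counts lean on those samples was not tested, so no wider co-expression is read from them. These values are descriptions over 8 shared libraries, picked as the highest among those of the 11897 tested genes that have a symbol.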

How the data were processed

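Poly-A RNA of 8 conceptus-halves was sequenced, 4 FLI and 4 control by the treatment label. FastQC, HISAT2, featureCounts and edgeR and the build ARS-UCD1.2 are named in the submitters' processing notes. Tool versions, strandedness of counting and handling of multi-mapped reads are not given in the sources used. Each sample column of the deposited table holds, per its values, a signal that is CPM of a scaled library total. Per gene, the authors also deposited a p-value, a score (LR in the file headers), and log2 values (fold change and level). All values were whole multiples of 1 step per column (100% whole within 0.001), so reads were recovered, and 1 read is 0.00646 to 0.00987 CPM. Even numbers made up 57.8% of recovered counts from 1 to 20. The lowest gene total was 112 reads.

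limma 3.58.1 (trend, two-sided, R 4.3.3) was run on log2(CPM + 0.5) for 11897 genes, those reaching 1 CPM in 4 or more samples, with Benjamini-Hochberg adjustment at 0.05. edgeR 4.0.16 and DESeq2 1.42.0 were run on the recovered reads as alternatives. Correlations were tested over all 40320 pairings of the 8 samples, or exactly over those of fewer samples. The 5 keratins and all lists were chosen with earlier results of these data known. Named genes were the 5 keratins, the other tested keratins, the 2 genes of smallest p and the 1 of highest level in each other list, and the 3 genes most like each keratin. The genes most like a keratin were picked among tested genes with a symbol. The marker lists are given as sums and counts, and single markers named with them were picked after their values were seen.

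The numbers 20, 3M and 4M stand in titles of both groups. Their meaning is not labelled. For the 3 same-numbered pairs the correlation of deviations from group means was 0.133, 0.351 and 0.359, each over 0.1, so the number was also fitted as a block on these 6 samples. Other alternatives were the pseudocount, the filter, library size alone as scaling, the last character of the title, and leaving out each sample. List counts and named genes without control 10 were added after the data were seen.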

Additional observations from a re-analysis of the deposited data

Results flagged for a closer look

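In 6 of 32 groups of 4 samples checked, 1 sample lay far from the others of its group. The rule flags about 1 in 20 groups of independent, normally distributed values. Levels were checked as CPM and the measures share genes and samples, so no excess over chance is read from the 6. KRT15 was 27.9 CPM in FLI 20, with the next FLI sample at 0.158 CPM. KRT20 was 19.1 CPM in FLI 50, with the next FLI sample at 3.32 CPM. The ratio of KRT8 to KRT18 was 1.29 in FLI 20, with the next FLI sample at 1.01. KRT5 was 120 CPM in control 10, with the next control at 12.5 CPM, and KRT17 was 2.89 CPM in control 10, with the next control at 0.504 CPM. The 5 keratins together took 1.45% of the reads in control 4M, with the next control at 2.20%. FLI 20 and control 10 each appear 2 times in this list. What sets these samples apart was not tested.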

How the results depend on the processing

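The number of genes called at an adjusted p of 0.05 was 0 in limma and in 18 of 19 alternatives, and 9 (8 higher, 1 lower) with DESeq2, where the cause was not tested. With the title number as a replicate block on 6 samples 0 genes were called, 806 having an unadjusted p under 0.05, and the block changed no call. The number of keratin pairs past the threshold was 0, and 0 to 1 when each sample was left out in turn. Without control 10 it was 1 pair, KRT8 and KRT18. The log2 difference of KRT80 was -1.03 to -0.58 over 15 alternatives, in which its sign could hardly turn, since the groups did not overlap and the gene was picked with that known. Counts in parentheses are of alternatives with the same sign. KRT7 ran from -0.17 to 1.61 (14 of 15), and was 0.30 with the replicate block. KRT18 ran from -0.04 to 0.31 (14 of 15), KRT8 from -0.13 to 0.35 (13 of 15) and KRT19 from -0.19 to 0.35 (10 of 15). Library size alone moved the median log2 difference of all genes to -0.09. KRT80 rests on 51 to 240 reads per library, and 4 samples per group limit every comparison.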
